A study of Sus scrofa with 8 samples.

Results

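The genes described here are 10 genes of muscle wasting and its control in the heart of pigs: the transcription factors FOXO1, FOXO3 and FOXO4, the muscle ubiquitin ligases FBXO32, TRIM63, TRIM54 and TRIM55, myostatin (MSTN), and the autophagy genes SQSTM1 and GABARAPL1. They were chosen by name in a table of 18975 Ensembl genes, and 8 of the 10 were found there by name. GABARAPL1 carried no name in the table and was found by its Ensembl identifier, so its values are given beside those of the 8 and stay out of the counts of the 8. It is included in the counts of gene pairs and of fold changes under alternative settings. TRIM54 was not analysed here. RNA-seq was carried out on hearts of male pigs aged 6 months, of the Tibetan breed in the highland (TH) and the lowland (TL) and of the Yorkshire breed in the highland (YH) and the lowland (YL). The labels name no transgene or drug treatment, and the YL libraries were assigned by title, although their descriptions point to TL. Each group has 2 libraries, and each library holds RNA pooled from 4 pigs, so the spread within a group is a spread between pools. Place of rearing and altitude cannot be told apart, and with 2 libraries against 2 an exact two-sided permutation test cannot go below p = 0.333.

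FOXO factors are transcription factors that insulin and growth factor signalling, through the kinase AKT, keeps out of the nucleus. In muscle, active FOXO factors switch on ubiquitin ligases that mark proteins of the sarcomere for the proteasome, and genes of autophagy, in which parts of the cell are enclosed in vesicles and digested in lysosomes. Myostatin, a secreted factor of the TGF-beta family, limits muscle growth and acts on the same balance through SMAD proteins.

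Reads on genes ran from 15686819 in TH2 to 26722605 in TH1, with a median of 19648075. Values are the authors' FPKM, by definition fragments scaled by transcript length and by the number mapped, which permits levels of different genes to be set side by side. The scaling between libraries did not follow the reads on genes alone. FOXO1 had 491 reads and 5.72 FPKM in TH1, and 490 reads and 6.32 FPKM in TH2. FPKM summed over all genes ran from 1563940 in YL2 to 8559104 in TH1. A pair of libraries stood apart. YL2 had a summed FPKM of 12100 over 20 kidney marker identifiers, against at most 20.3 in each of the other 7 libraries, and all 20 were highest in YL2. The 8 cardiomyocyte markers summed to 13400 FPKM in YL2 and to 31600 in YL1, and ranged from 20100 to 36000 in the other 6 libraries, so that their sum was high in every library. Single markers differed by unequal factors between YL1 and YL2, as given below. TH1 had the lowest fibroblast marker sum (202 FPKM, against 244 to 830 elsewhere) and the highest blood cell marker sum (3100 FPKM, against 539 to 1640 elsewhere). Of 8 skeletal muscle markers, 5 were under 1 FPKM in every library, MYH1, MYH2, MYF6 and MYOG among them, and the sum of the list was 4.45 to 37.3 FPKM. In bulk samples fewer cells of a type and less RNA per cell cannot be told apart, and what these mixtures contribute to the results was not tested. Limma fold changes of the members that use YL2 are given with and without it.

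The members covered a wide range of expression. GABARAPL1 had the highest mean over the 8 libraries (234.2 FPKM), followed by SQSTM1 (135.3 FPKM), TRIM63 (131.6 FPKM), TRIM55 (45.4 FPKM), FOXO4 (22.8 FPKM), FBXO32 (13.9 FPKM), FOXO1 (7.30 FPKM), FOXO3 (3.76 FPKM) and MSTN (1.20 FPKM). SQSTM1 was above TRIM63 in 4 of the 8 libraries, so those neighbours had no fixed order. GABARAPL1 exceeded SQSTM1 in 7 libraries and FBXO32 exceeded FOXO1 in 7, whereas each of the other neighbours kept its order in all 8. The depth behind these levels differed as much, from 6 to 73 reads per library for MSTN and 31 to 470 for FOXO3 to between 3750 and 13973 for GABARAPL1. All 9 genes passed the filter of at least 1 FPKM in at least 2 libraries, MSTN through 3 libraries and FOXO3 through 7.

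**Figure D1:**
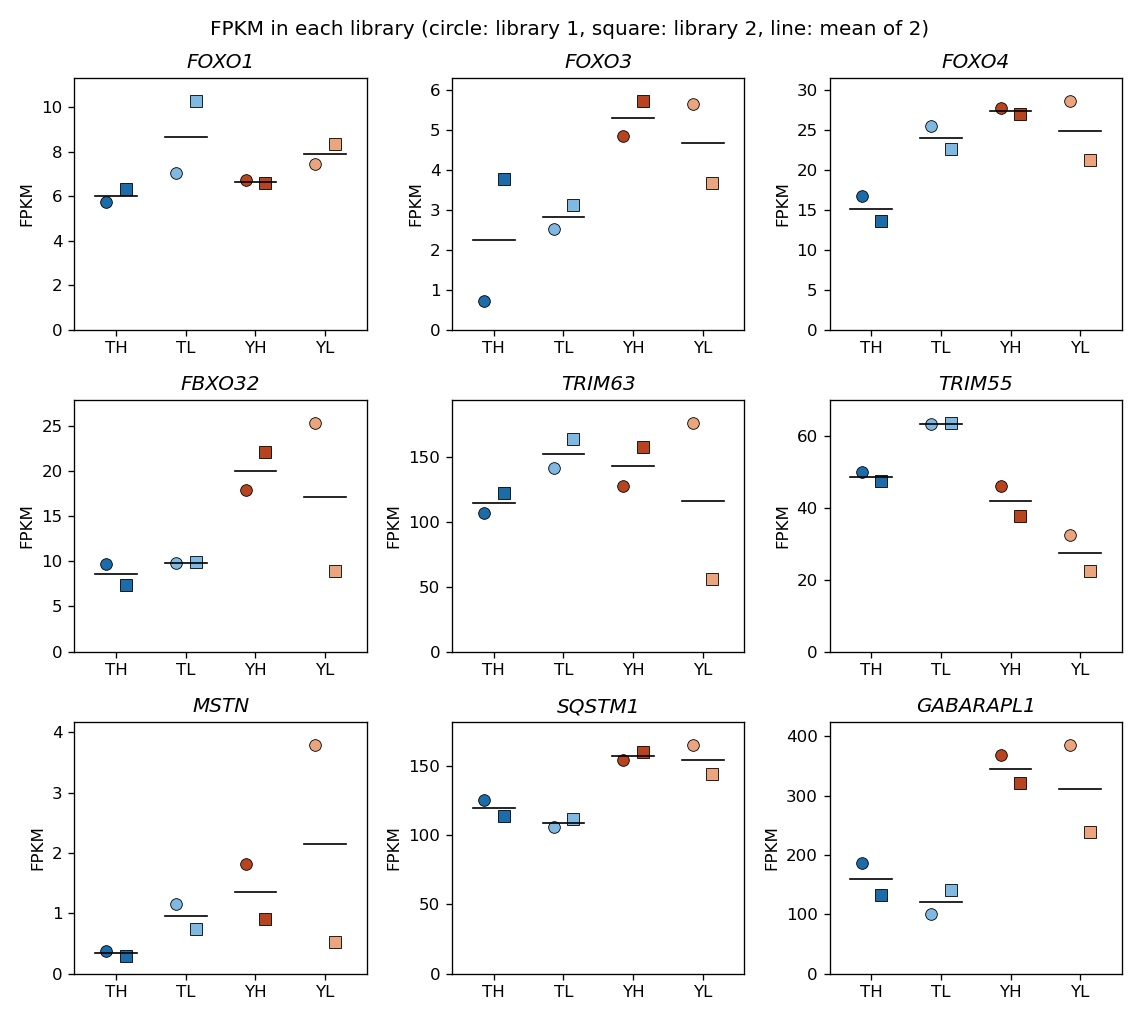
FPKM of the 9 genes (vertical axes, linear from 0) in the 2 libraries of each group, circles for library 1 and squares for library 2, with a line at the mean. SQSTM1 and GABARAPL1 lie higher in all 4 Yorkshire libraries than in all 4 Tibetan libraries, TRIM55 lies lower, and the YL2 squares of FBXO32, TRIM63 and MSTN lie far below the YL1 circles.

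Among the FOXO factors, FOXO4 was the most abundant. FOXO4 lies on chromosome X (64662673 to 64670530, Sscrofa10.2) and measured 16.7 and 13.5 FPKM in the TH libraries, 25.4 and 22.6 in the TL libraries, 27.7 and 27.0 for YH, and 28.6 and 21.2 for YL. The TH libraries were below all 6 others, and the TL and YH libraries lay within the range of YL. The log2 fold change on the log2(FPKM + 1) scale, on which all changes below are given, was -0.82 ± 0.23 (standard error) from TH to YH, meaning TH minus YH (limma, unadjusted p = 0.00915, adjusted p = 0.185), and -0.64 ± 0.23 from TH to TL (unadjusted p = 0.0272, adjusted p = 0.36). The breed difference in the lowland was -0.04 ± 0.23, and -0.24 ± 0.23 without YL2.

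FOXO3 is the family member classically tied to the atrophy program of muscle. Its FPKM, for a gene on chromosome 1 (83886631 to 84048935), were 0.704 and 3.77 (TH), 2.53 and 3.13 (TL), 4.87 and 5.73 (YH), and 5.65 and 3.69 (YL). TH1, with 31 reads, was far below TH2, with 191, and the TH2 value was above YL2. The limma difference from TH to YH was -1.14 ± 0.47 (unadjusted p = 0.046, adjusted p = 0.301), and without TH1 it was -0.40. The difference from TH to TL turned from -0.42 ± 0.47 to 0.32 without TH1. From TL to YL it was -0.55 ± 0.47, and -0.80 ± 0.57 without YL2.

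FOXO1, whose product also acts on glucose and lipid metabolism, had the smallest difference between breeds of the 9 genes, -0.01 ± 0.16 over both altitudes and 0.02 ± 0.17 without YL2. The gene, on chromosome 11 (15544859 to 15688360), had 5.72 and 6.32 FPKM in highland and 7.03 and 10.3 in lowland Tibetan pigs, and 6.72 and 6.59 in highland and 7.43 and 8.36 in lowland Yorkshire pigs. In each breed both lowland libraries were above both highland libraries. The changes were -0.44 ± 0.23 from TH to TL (limma, unadjusted p = 0.0951, adjusted p = 0.514) and -0.22 ± 0.23 from YH to YL (adjusted p = 0.834), or -0.14 ± 0.27 without YL2. The TH to TL value was -0.19 without TL2 and -0.68 without TL1.

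FBXO32, or atrogin-1, is the substrate receptor of an SCF ubiquitin ligase and a textbook marker of muscle atrophy. On chromosome 4 (16638621 to 16669461), it was at 9.75 and 7.42 FPKM (TH), 9.83 and 9.90 (TL), 17.9 and 22.1 (YH), and 25.3 and 8.99 (YL). The 4 Tibetan libraries lay between 7.42 and 9.90 FPKM, 3 of the Yorkshire libraries between 17.9 and 25.3, and YL2 among the Tibetan values. The mean in YH was 2.33 times that in TH (log2 fold change -1.14 ± 0.44, limma, unadjusted p = 0.0356, adjusted p = 0.278). From TL to YL the difference was -0.58 ± 0.44 with both YL libraries and -1.28 ± 0.25 without YL2, and from YH to YL it turned from 0.37 ± 0.44 to -0.33 ± 0.25.

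TRIM63, or MuRF1, is a ubiquitin ligase bound to the sarcomere whose targets include myosin heavy chain. Located on chromosome 6 (77129132 to 77143413), it had 107 and 123 FPKM in highland and 141 and 164 in lowland Tibetan pigs, and 128 and 158 in highland and 176 and 56.0 in lowland Yorkshire pigs. YL1 held the highest and YL2 the lowest value of all 8. The difference from TH to YH was -0.31 ± 0.50 (limma, adjusted p = 0.781), and from TH to TL it was -0.41 ± 0.50 (adjusted p = 0.807). The difference from TL to YL was 0.61 ± 0.50 with YL2 and -0.21 ± 0.27 without it, and that from YH to YL went from 0.51 ± 0.50 to -0.31 ± 0.27.

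TRIM55, or MuRF2, a relative of TRIM63 that also binds the sarcomere, followed another pattern. Its FPKM, also for a gene of chromosome 4 (74654818 to 74698666), were 50.2 and 47.4 (TH), 63.3 and 63.7 (TL), 46.2 and 37.7 (YH), and 32.4 and 22.4 (YL). The groups did not overlap, in the order TL, TH, YH, YL. The difference from TL to YL was 1.21 ± 0.24 (limma, unadjusted p = 0.00177, adjusted p = 0.243), and 0.95 ± 0.23 without YL2. From TH to YH it was 0.22 ± 0.24 (adjusted p = 0.676). The altitude differences had opposite signs, -0.37 ± 0.24 from TH to TL and 0.61 ± 0.24 from YH to YL, or 0.36 ± 0.23 without YL2. The interaction, which is the altitude difference of Tibetan pigs less that of Yorkshire pigs, was -0.99 ± 0.34 (limma, unadjusted p = 0.0249, adjusted p = 0.395), and -0.73 ± 0.30 without YL2.

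MSTN, on chromosome 15 (105734306 to 105739335), was the lowest of the members and near the detection limit. Its libraries had 0.378 and 0.296 FPKM (TH), 1.16 and 0.744 (TL), 1.81 and 0.905 (YH), and 3.79 and 0.523 (YL). These values stand for 9 and 6 reads (TH), 29 and 21 (TL), 44 and 20 (YH), and 73 and 18 (YL). Both TH libraries were below all others, and YL1 was the highest. The limma differences were -0.79 ± 0.51 from TH to YH (adjusted p = 0.479) and -0.54 ± 0.51 from TH to TL (adjusted p = 0.744), on a scale that can understate changes of low genes. With a pseudocount of 0.1 they were -1.67 and -1.25, by edgeR -1.82 and -1.44, and by DESeq2 -1.83 and -1.45. From TL to YL the difference was -0.48 ± 0.51, and -1.30 ± 0.31 without YL2. From YH to YL it was -0.22 ± 0.51, and -1.05 ± 0.31 without YL2. With all libraries, a pseudocount of 0.1 gave -0.60 from TL to YL and -0.17 from YH to YL. By edgeR these were -1.18 and -0.80, and by DESeq2 -1.21 and -0.83.

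SQSTM1 encodes p62, the receptor that links ubiquitin-tagged cargo to autophagy vesicles. The gene, on chromosome 2 (80296799 to 80329991), had 125 and 114 FPKM in highland and 106 and 112 in lowland Tibetan pigs, and 155 and 160 in highland and 165 and 144 in lowland Yorkshire pigs. All 4 Yorkshire libraries were above all 4 Tibetan libraries, YL2 included. The TH libraries were just above the TL libraries, and the YH libraries lay within the range of YL. The differences were -0.39 ± 0.21 from TH to YH (limma, unadjusted p = 0.107, adjusted p = 0.404) and -0.50 ± 0.21 from TL to YL (unadjusted p = 0.0523, adjusted p = 0.562), or -0.59 ± 0.23 without YL2.

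GABARAPL1 belongs to the ATG8 family, whose products are joined to the lipid of the growing autophagy vesicle. At its locus on chromosome 5 (64622526 to 64631775) the FPKM were 186 and 133 (TH), 100.2 and 141 (TL), 369 and 321 (YH), and 385 and 239 (YL). The lowest Yorkshire value, that of YL2, was above the highest Tibetan value, that of TH1. The mean in YH was 2.16 times that in TH (-1.13 ± 0.34, limma, unadjusted p = 0.0135, adjusted p = 0.204), and the mean in YL was 2.59 times that in TL (-1.35 ± 0.34, unadjusted p = 0.00577, adjusted p = 0.301). Without YL2 the TL to YL difference was -1.69 ± 0.34. Within a breed the altitude differences were 0.40 ± 0.34 for TH to TL and 0.18 ± 0.34 for YH to YL, or -0.16 ± 0.34 without YL2. The TH to TL value was 0.16 without TH1 or without TL1, and 0.64 without TH2 or without TL2. Genes of this family resemble each other in sequence, and how the authors' counting divided reads between them was not tested.

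**Figure D2:**
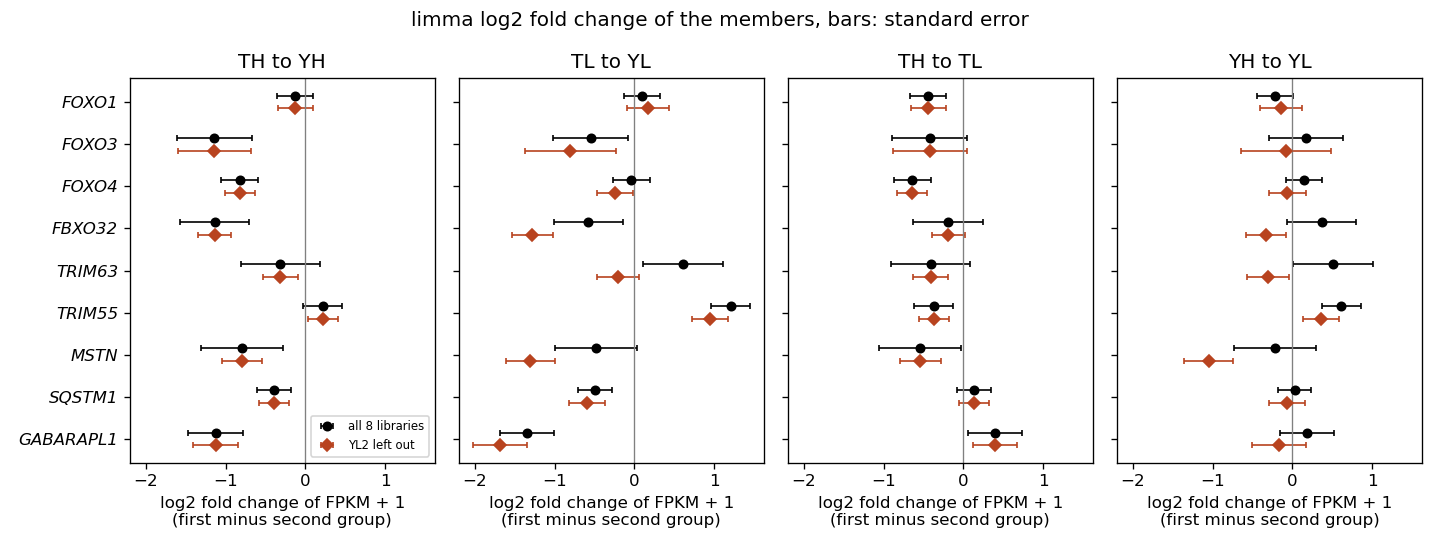
Log2 fold changes of FPKM + 1 (horizontal axes, first minus second group) with limma standard errors for 9 genes in 4 comparisons, black circles with all 8 libraries and red diamonds with YL2 left out. In TH to YH every gene except TRIM55 lies below 0, and in TL to YL and YH to YL the points of FBXO32, TRIM63 and MSTN move most when YL2 is left out.

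Calls required an adjusted p under 0.01 together with a log2 fold change beyond 1 in size. In TH to YH, limma called 0 of the 8 members found by name, with 0.0336% of the 11913 tested genes called. GABARAPL1, outside the 8, had an unadjusted p under 0.05, and the counts that follow are of the 8 only. Among the 8, FOXO3, FOXO4 and FBXO32 had an unadjusted p under 0.05, 3 of 8 against 16.2% of all tested genes. Without TH1 this held for FOXO4 alone, 1 of 8 against 9.17% of tested genes, and without YL2 for 4, MSTN being the fourth, against 22.7%. All 8 members had groups that did not overlap, 7 of them lower in TH, against 52.5% of all tested genes with groups apart in either direction, and with TH2 alone on the Tibetan side the share of tested genes was 76.4%. The median log2 fold change of the 8 was -0.59, beside -0.03 for all tested genes, and without TH1 it was -0.43. The quasi-likelihood test of edgeR on recovered reads called 0 members (0.0% of tested genes) and 2 had an unadjusted p under 0.05 (14.9% of tested genes), and DESeq2 called 0 (1.93% of tested genes).

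In TL to YL, limma also called 0 of the 8 members (0.00839% of tested genes called), and TRIM55 alone had an unadjusted p under 0.05 (8.94% of tested genes), beside GABARAPL1. Without YL2 there were 4, FBXO32, TRIM55, MSTN and SQSTM1, against 9.72% of tested genes, and without TH1 there were 2, TRIM55 and SQSTM1, against 11.4%. The groups of 3 members did not overlap: FOXO3 and SQSTM1 were lower in TL and TRIM55 was higher, against 41.5% of tested genes with groups apart. With YL1 alone on the Yorkshire side 7 members were apart, 6 of them lower in TL, against 81.3% of tested genes. The median of the 8 was -0.26 with all libraries and -0.42 without YL2, beside 0.02 and 0.05 for all tested genes. Of the 8, edgeR called 0 (0.0% of tested genes) with 1 at an unadjusted p under 0.05 (11.2% of tested genes), and DESeq2 called 0 (1.47% of tested genes). By DESeq2, TRIM55 reached an adjusted p of 0.0176 and GABARAPL1 one of 0.0136, and neither passed the threshold of 0.01. Over all settings tried the adjusted p ranged from 0.0165 to 1.0 for TRIM55 and from 0.0136 to 1.0 for GABARAPL1.

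The altitude comparisons gave 0 called members as well. In TH to TL, limma called 0.0504% of tested genes, FOXO4 was the 1 member with an unadjusted p under 0.05 (11.3% of tested genes), and the groups of 7 of the 8 members were apart, 6 of them lower in TH and SQSTM1 higher (48.5% of tested genes). The median was -0.42, beside -0.02 for all tested genes. In YH to YL, limma called 0.0% of tested genes, TRIM55 was the 1 member with an unadjusted p under 0.05 (5.97% of tested genes), and the groups of FOXO1 and TRIM55 were apart (36.3% of tested genes). Without YL2, with 1 YL library left, the groups of 7 members were apart, 6 of them lower in YH (75.0% of tested genes). Without YL2 the 1 member at an unadjusted p under 0.05 was MSTN in place of TRIM55 (5.45% of tested genes). The median there was 0.16 with YL2 and -0.11 without it. For the interaction, limma called 0 members (0.0336% of tested genes), and FOXO4 (-0.79 ± 0.32, adjusted p = 0.451) and TRIM55 had an unadjusted p under 0.05 (10.9% of tested genes). Without YL2 the FOXO4 value was -0.58 ± 0.30 (limma, unadjusted p = 0.0977), and TRIM55 was the 1 member left under 0.05 (12.8% of tested genes). Of the 8 members, edgeR called 0 in each of these 3 (0.0% of tested genes each). At an unadjusted p under 0.05 edgeR gave 1 in TH to TL (10.5% of tested genes), 0 in YH to YL (8.87%) and 1 for the interaction (11.3%). DESeq2 called 0 members in each, with 1.26%, 0.302% and 0.63% of tested genes called.

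The breeds were also compared over both altitudes, a contrast chosen after the data were seen. Limma called 0 of the 8 members (0.0504% of tested genes called), and 5 had an unadjusted p under 0.05 (13.5% of tested genes): FOXO3, FOXO4, FBXO32, TRIM55 and SQSTM1. TRIM55 and SQSTM1 were the 2 members whose 4 Tibetan and 4 Yorkshire libraries did not overlap (8.03% of tested genes), and GABARAPL1 was apart too. Without YL2 there were 5, with FOXO3, FOXO4 and FBXO32 added, against 14.6% of tested genes. TRIM55 was higher in Tibetan pigs by 0.71 ± 0.17 (adjusted p = 0.154), and by 0.59 ± 0.15 without YL2. SQSTM1 was lower by a log2 fold change of -0.44 ± 0.15 (adjusted p = 0.279), and -0.49 ± 0.15 without YL2. FBXO32 had -0.86 ± 0.31 (adjusted p = 0.301), and -1.21 ± 0.16 without YL2. Its adjusted p ranged from 0.0184 to 0.707 over the settings tried. Of the 8, edgeR called 0 (0.0% of tested genes) with 4 at an unadjusted p under 0.05 (13.4% of tested genes), and DESeq2 called 0 (2.17% of tested genes).

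The call of GABARAPL1 in this contrast depended on the tool. Limma gave -1.24 ± 0.24 with an adjusted p of 0.103 (-1.41 ± 0.22 without YL2), and edgeR gave -1.27 with an adjusted p of 0.0866, both short of the threshold. DESeq2 gave -1.27 ± 0.27 with an adjusted p of 0.000303, which passed it. Over all alternatives run for this contrast the adjusted p ranged from 0.000303 to 0.441. DESeq2 called 259 genes in this contrast, limma 6 and edgeR 0.

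Ratios of 2 genes within 1 library do not depend on any factor that scales the library, and were computed after the data were seen for all 36 pairs of the 9 genes, as a description. In 11 of the 36 pairs the 4 Tibetan libraries did not overlap with the 4 Yorkshire libraries, and over all pairs of tested genes above 0 in every library the share was 8.78%. The 36 pairs share genes and are not independent of each other. A pair of genes that each separate the breeds alone, in opposite directions, must separate them as a ratio too. TRIM55 was part of 6 of the 11 pairs, GABARAPL1 of 4, TRIM63 of 3, FBXO32, FOXO3, FOXO4 and SQSTM1 of 2 each and MSTN of 1, and the other 6 of the 8 FBXO32 ratios overlapped between breeds. The ratio of FBXO32 to TRIM63 was 0.0915 and 0.0605 (TH), 0.0695 and 0.0604 (TL), 0.14 in both YH libraries, and 0.144 and 0.16 (YL). YL2, in which both genes were low, was thus next to YL1 on this ratio and not among the Tibetan libraries. This pair is shown because it separated the breeds.

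The ratio of FBXO32 to TRIM55 lay between 0.155 and 0.194 in the Tibetan libraries, and was 0.388 and 0.587 in YH and 0.783 and 0.402 in YL. The widest gap was that of TRIM55 to GABARAPL1, at 0.27 and 0.358 in TH and 0.632 and 0.452 in TL, against 0.125 and 0.117 in YH and 0.084 and 0.0936 in YL. TRIM55 alone was higher and GABARAPL1 alone lower in all Tibetan libraries, so this ratio had to separate the breeds. The same holds for TRIM55 to SQSTM1. The ratio of TRIM63 to TRIM55 overlapped between breeds, from 2.12 to 2.58 in Tibetan and from 2.50 to 5.44 in Yorkshire libraries.

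**Figure D3:**
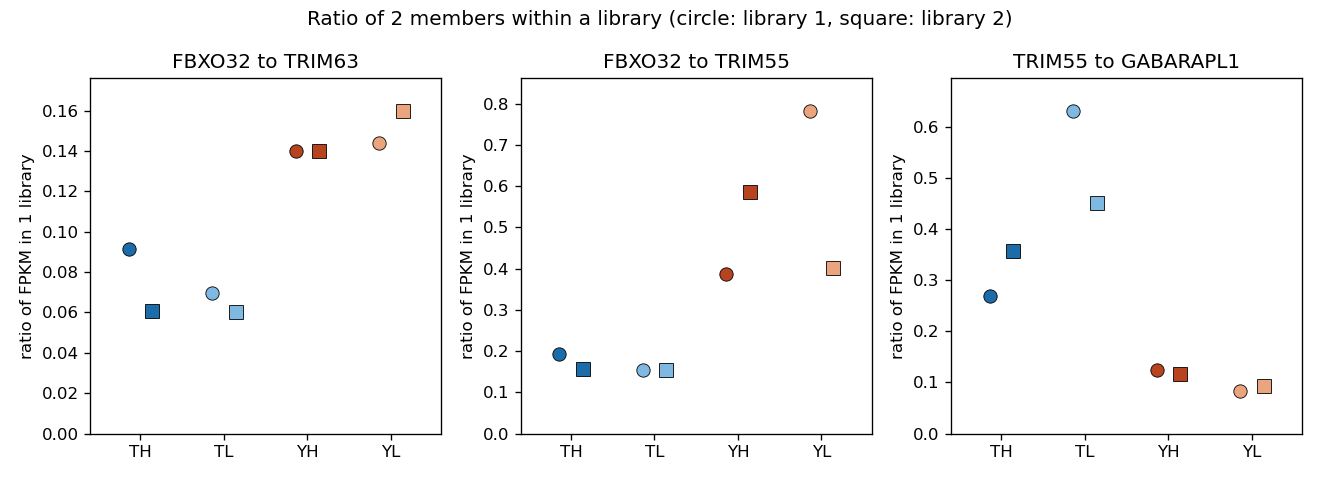
Ratio of FPKM of 2 genes within a library (vertical axes, linear from 0) by group, circles for library 1 and squares for library 2. Each of the 3 ratios separates the Tibetan from the Yorkshire libraries, and for FBXO32 to TRIM63 the Yorkshire libraries, YL2 included, lie between 0.14 and 0.16. TRIM55 to GABARAPL1 had to separate them, since each of its genes does so alone in opposite directions.

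The 2 libraries of YL differed from each other by unequal factors across the members. The YL2 value divided by the YL1 value was 0.138 for MSTN, 0.318 for TRIM63 and 0.355 for FBXO32, beside 0.367 to 0.419 for the cardiomyocyte markers TNNT2, RYR2, TNNI3, MYL3 and PLN. It was 0.621 for GABARAPL1, 0.652 for FOXO3, 0.692 for TRIM55 and 0.741 for FOXO4. SQSTM1 (0.873) and FOXO1 (1.12) were near equality. The other cardiomyocyte markers spread from 0.0294 for MYH6 to 1.07 for ACTC1.

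**Figure D4:**
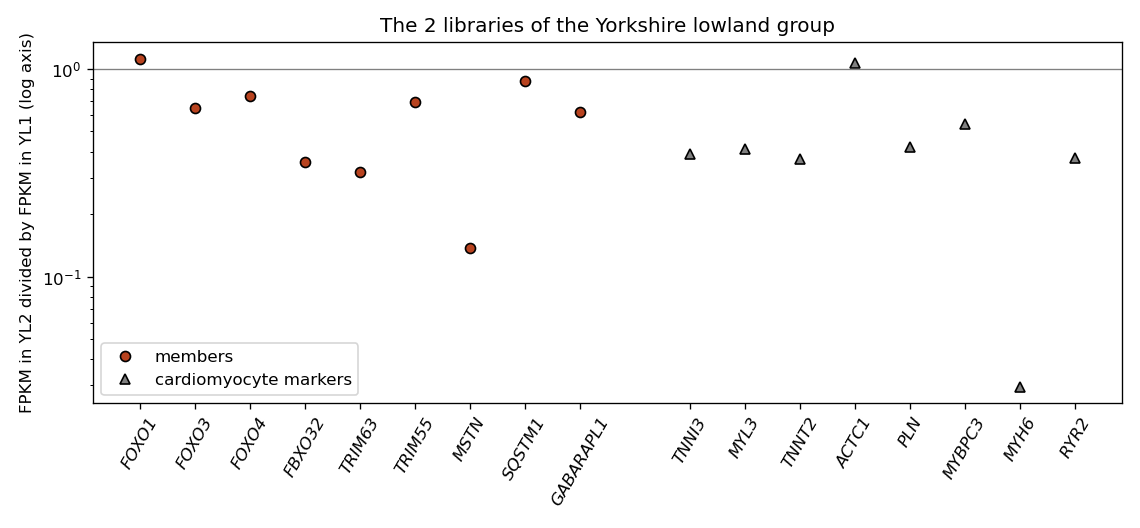
FPKM in YL2 divided by FPKM in YL1 on a log axis for the 9 genes (circles) and 8 cardiomyocyte markers (triangles), with a line at equality. FBXO32 (0.355) and TRIM63 (0.318) lie close to most of the markers, MSTN (0.138) lies lower, and FOXO1 (1.12) and SQSTM1 (0.873) lie near the line.

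The wider pathway was described with 5 lists, without the members, and limma and edgeR called 0 of their genes in each of the 5 comparisons and in the contrast of breeds. Over all tested genes limma called 0.0% to 0.0504% and edgeR 0.0%, so these counts of 0 say little about the lists. DESeq2 calls were not counted for the lists. The shares over all tested genes in TH to YH, against which the counts of the lists are to be read, were 16.2% at an unadjusted p under 0.05 and 52.5% with groups apart, and at that p 9.17% without TH1 and 22.7% without YL2. Of 45 tested genes of autophagy and the lysosome, 8 had an unadjusted p under 0.05 in TH to YH, each lower in TH, and the groups of 26 were apart and lower in TH, against 5 apart and higher. Without TH1 there were 4, of which 3 (PINK1, NBR1 and ULK1) were among the 8, and without YL2 there were 12. Not all of the 12 were lower in TH. The median of the list was -0.30, beside -0.03 for all tested genes. PINK1, the kinase that marks damaged mitochondria for autophagy, had -1.45 ± 0.22 (limma, adjusted p = 0.0691). In TL to YL, 1 of the 45 had an unadjusted p under 0.05 by limma (8.94% of tested genes), lower in TL. The groups of 17 were apart there and lower in TL, against 2 higher (41.5% of tested genes). The list had a median of -0.11 in TL to YL, and -0.135 without YL2. Its most abundant genes were CTSB, a lysosomal protease at 142 to 242 FPKM in 7 libraries and 1290 in YL2, MAP1LC3A, an ATG8 family gene like GABARAPL1, at 104 to 317 FPKM, GABARAPL2 at 85.1 to 167 FPKM, and CTSD, a further lysosomal protease, at 76.9 to 126 FPKM.

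Of 33 tested identifiers of other ubiquitin ligases and their partners, 6 had an unadjusted p under 0.05 in TH to YH, each lower in TH, with 0 without TH1 and 8 without YL2. The median of the list was -0.27, and -0.15 without TH1. FBXO40, an F-box gene of striated muscle, had -1.80 with an adjusted p of 0.187 by limma. In TL to YL, 0 of the 33 had an unadjusted p under 0.05 by limma (8.94% of tested genes). The list had a median of -0.015 there, and -0.07 without YL2. Among its most abundant genes were UBB, which encodes ubiquitin (715 to 1140 FPKM), UBE2B, a ubiquitin-conjugating enzyme (57.4 to 121 FPKM), and ASB2, a ligase subunit of muscle (52.3 to 128 FPKM). Of 27 tested identifiers of other FOXO targets, 5 had an unadjusted p under 0.05 in TH to YH, and 3 without TH1, of which PIK3IP1 was the 1 shared with the 5, and 8 without YL2, the 5 among them. The median of the list was -0.42, and -0.28 without TH1. CITED2, PIK3IP1, the autophagy gene ATG14 and 1 of the 2 identifiers of the insulin receptor gene INSR (mean 6.79 FPKM) were lower in TH, and EIF4EBP1, which holds back translation, was higher. The more abundant INSR identifier (mean 30.3 FPKM) had -0.46 ± 0.39 (limma, unadjusted p = 0.278). At an unadjusted p under 0.05 by limma, 1 of the 27 was higher and 2 were lower in TL to YL (8.94% of tested genes). The median of the targets was -0.17 there, and -0.32 without YL2.

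PDK4, which holds back pyruvate oxidation and is a well-known FOXO target, had the widest range among the 4 most abundant targets on a log scale. Its FPKM were 183 and 154 (TH), 6.5 and 34.7 (TL), 303 and 253 (YH), and 359 and 77.7 (YL). The TL libraries were below all 6 others. The differences were 3.37 from TH to TL (limma, unadjusted p = 0.00669, adjusted p = 0.261) and -3.36 from TL to YL (unadjusted p = 0.00674, adjusted p = 0.322), or -4.46 ± 0.82 without YL2. TXNIP, a thioredoxin inhibitor, ran from 263 to 563 FPKM. SEPP1, a selenium carrier, and SOD2, the mitochondrial superoxide dismutase, completed the 4 most abundant, with 647 FPKM in YL2 against 43.0 to 143 elsewhere for SEPP1, and 99.5 to 233 FPKM for SOD2.

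Among 28 tested identifiers of FOXO partners and regulators, led by the 14-3-3 genes YWHAE (123 to 252 FPKM) and YWHAH (61.3 to 166 FPKM), the methyltransferase PRMT1 (70.9 to 163 FPKM) and YWHAB (48.9 to 121 FPKM), the median in TH to YH was -0.11, and -0.02 without TH1. YWHAB, higher in TH, and the insulin receptor substrate IRS1, lower, were the 2 with an unadjusted p under 0.05, with 0 without TH1 and 3 without YL2. Among 15 tested identifiers of the myostatin and activin pathway the median was -0.13, and it turned to 0.07 without TH1. BMP1 and TGFBR1 had an unadjusted p under 0.05, both higher in TH, with 0 without TH1 and 3 without YL2. TCAP, a protein of the sarcomere's Z-disc (1680 to 5190 FPKM), was the most abundant of that list, followed by DCN (72.4 to 266 FPKM), BMP1 (up to 41.8 FPKM) and FURIN (12.1 to 20.1 FPKM). In TL to YL, 1 of the 28 and 2 of the 15 had an unadjusted p under 0.05 by limma, all higher in TL (8.94% of tested genes). The medians there were 0.04 for the 28 and 0.06 for the 15. Without YL2 they were 0.10 and -0.01.

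Genes of similar profile were sought for the 3 members with the widest range of group means, as the root mean square difference of centred log2(FPKM + 1) over the 8 libraries among genes with a mean of at least 10 FPKM. For GABARAPL1 the nearest of 4160 genes were AQP7 (difference 0.23), TBC1D4 (0.29) and WIPI1 (0.31). AQP7, a glycerol channel, had 15.4 and 11.3 FPKM (TH), 7.35 and 11.9 (TL), 50.4 and 32.0 (YH), and 31.2 and 22.5 (YL), all 4 Yorkshire libraries above the Tibetan ones as for GABARAPL1. ZYX (0.17) and TSPAN13 (0.17) were among the nearest to TRIM55. ZFP36L2 (0.19) and SUN2 (0.19) were the nearest to FOXO3, both with their lowest value in TH1, as FOXO3 had. These are descriptions over 8 libraries of 4 groups that share library and group differences.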

How the data were processed

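The authors aligned reads of 8 heart libraries to Sscrofa10.2 with TopHat and computed FPKM with Cufflinks. Values are FPKM, deposited with a scaled read signal that the authors named a count. Dividing this signal by its step gave whole reads for at least 99.75% of values up to 1000 reads (tolerance 0.05), used for depth, edgeR and DESeq2. Group means and ratios in 8 columns were not used. YL1 and YL2 were taken as YL by title, although their descriptions point to TL. Over tested genes YL1 correlated by 0.9602 and 0.9497 with YH1 and YH2, and by 0.9392 and 0.9409 with TL1 and TL2. For YL2 these were 0.8683 and 0.8622, and 0.87 and 0.8622. The assignment itself was not tested. limma 3.58.1 (R 4.3.3) was fitted with trend to log2(FPKM + 1) of all 8 libraries for the 11913 genes that reached 1 FPKM in 2 or more libraries, with Benjamini-Hochberg adjustment over all of them. Calls required an adjusted p under 0.01 together with a log2 fold change beyond 1 in size. The fits were tested on simulated data. Alternatives were edgeR 4.0.16, DESeq2 1.42.0, a pseudocount of 0.1, other filters and thresholds, scaling, no trend, 4 libraries alone, a replicate block and each library left out. Counts at an unadjusted p without YL2 or TH1 were added after seeing the data. Named genes were all members, the 4 most abundant genes of each list and the 3 nearest profiles, of which some are not reported here. Other list genes, named for an unadjusted p under 0.05 (PINK1, NBR1, ULK1, FBXO40, CITED2, PIK3IP1, INSR, ATG14, EIF4EBP1, IRS1, TGFBR1), were picked once their values were known. The members and lists were chosen with earlier results of these data known. The methods describe the pools of a group as biological replicates, and p-values measure the spread between these pools.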

Additional observations from a re-analysis of the deposited data

Results flagged for a closer look

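The altitude difference of TRIM55 had opposite directions in the breeds. Both TH libraries (50.2 and 47.4 FPKM) were below both TL libraries (63.3 and 63.7), and both YH libraries (46.2 and 37.7) were above both YL libraries (32.4 and 22.4). The interaction was -0.99 on the log2 scale (limma, unadjusted p = 0.0249, adjusted p = 0.395), so it failed the correction, and without YL2 it was -0.73. Kidney genes were measured in YL2, and their part in this difference was not tested.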

How the results depend on the processing

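The count of 0 called members among the 8 held in each of the 4 comparisons, in the interaction and in the contrast of breeds under every alternative run except 1. With an unadjusted p under 0.01, which is less strict, 1 member (TRIM55) passed in TL to YL. The 36 fold changes of at least 0.2 in size (for the interaction, those of FOXO4 and TRIM55) had 628 values under the alternatives. Of these, 616 kept their direction and their side of the threshold, 11 turned in direction and 1 came to pass it (GABARAPL1 between breeds by DESeq2, -1.27). Many of the 628 could not turn. A limma fold change is the same by construction without trend, with other filters, with a replicate block or with the 4 libraries alone. It is also the same when a library outside the comparison is left out. The share that was kept therefore overstates how stable the directions were. With each library left out in turn, FOXO3 ranged from -1.16 to 0.32 in TH to TL, turning without TH1. FBXO32 ranged from -1.28 to 0.12 in TL to YL, turning without YL1, and from -0.33 to 1.07 in YH to YL, turning without YL2. TRIM63 ranged from -0.21 to 1.43 in TL to YL and from -0.31 to 1.33 in YH to YL, turning without YL2 in both. MSTN ranged from -1.30 to 0.35 in TL to YL, turning without YL1, and from -1.05 to 0.60 in YH to YL, turning without YL1 or YH2. With edgeR and YL2 left out, a setting chosen after seeing the data, FBXO32 was -0.36 and TRIM63 -0.30 in YH to YL, and TRIM63 was -0.26 in TL to YL. The cause was not tested. A lone library left in a group is assumed to vary like the other groups. Libraries with the same replicate number had deviations correlated by -0.084 to 0.118, which cannot settle whether the number pairs them. With a replicate block 0 members were called in each comparison and all genes called went from 6 to 4 in TH to TL. Median-ratio scaling moved the median of all tested genes from -0.03 to -0.13 in TH to YH. Depth limits MSTN (6 to 73 reads) and FOXO3 (31 reads in TH1).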
